A study of Rattus norvegicus with 6 samples.

Results

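miR-210 is a microRNA (miRNA), a short RNA that pairs with messenger RNAs through its seed and lowers the output of those it pairs with. The 2 rows of the deposited miRNA table that carry its rat names, rno-miR-210-3p and rno-miR-210-5p, were chosen by name from 867 listed rows, and both had reads. A row named miR-210-y, without the rat prefix, shares the seed of miR-210-3p and is described beside them. The study sequenced small RNA from circulating exosomes, the small membrane vesicles that cells release into blood. NXT-Exo came from the serum of male Sprague-Dawley (SD) rats on a normal diet that received 1000 mg/kg/d of Naoxintong Capsule (NXT), a polyherbal preparation, by gavage, and Ctl-Exo from such rats given 5 mL/kg/d of saline. The rats were 6 to 8 weeks old and no disease was induced in either group. The comparison used NXT-Exo 1 to 5 and Ctl-Exo 5, and the labels do not tie a library to a single animal or a pool. Dosing lasted 7 days by the titles of all 6 libraries, but the treatment field differs and states 7 days for NXT-Exo 1, 8 for NXT-Exo 2, 9 for NXT-Exo 3, 10 for NXT-Exo 4, and 11 for NXT-Exo 5 as well as Ctl-Exo 5.

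miR-210 is the miRNA most often linked to low oxygen. In hypoxic cells, endothelial cells among them, the hypoxia-inducible factor (HIF) raises its transcription, and its known targets include the iron-sulfur cluster protein ISCU and the ephrin EFNA3, which connect it to mitochondrial respiration and to vessel growth. The hairpin is cut into an arm from each side, and the 3p arm is the one usually kept. Red blood cell precursors and many other tissues also hold miR-210, so a level in serum exosomes does not name the cells of origin.

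The sequences show how the rows relate. The mature arms are given as RefSeq lists them for the rat assembly GRCr8, with bases 2 to 8, the seed, in capitals. The hairpin follows with both arms in capitals, and then the longer listed row as the authors' table writes it, in DNA letters, with its 2 added bases in capitals.
rno-miR-210-3p: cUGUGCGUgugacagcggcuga
rno-miR-210-5p: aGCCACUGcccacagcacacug
Mir210 hairpin: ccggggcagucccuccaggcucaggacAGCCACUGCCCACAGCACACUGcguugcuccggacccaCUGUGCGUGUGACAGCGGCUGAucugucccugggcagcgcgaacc
miR-210-y: ctgtgcgtgtgacagcggctgaAT

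Both listed rat sequences were identical to the RefSeq arms over their 22 bases. In GRCr8 the hairpin gene lies at chr1:205755923-205756032 on the minus strand, with the 3p arm at chr1:205755946-205755967 and the 5p arm at chr1:205755984-205756005. The submitters' notes name the older build Rnor_6.0, so these positions come from matching the sequences and not from the table. The gene overlaps the non-coding gene LOC102553043, and its nearest coding neighbours are Rassf7 and Phrf1. On the plus strand the same bases are annotated as Mir3574, whose mature miR-3574 is the exact reverse complement of miR-210-3p. No listed row bears the name miR-3574.

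In the predicted fold of the 110-base hairpin (RNAfold, -46.5 kcal/mol), 16 of the 22 bases of the 5p arm were paired with the 3p arm, and 16 bases lay between the arms. Each arm was 63.6% G and C, above the median of 47.8% over the rat rows. miR-210-y carries the 22 bases of miR-210-3p and then departs from the hairpin at both added bases. Counted from its 5′ end, the differences from the hairpin, written as DNA, were T23A and C24T. No other listed row shared the seed of either arm.

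miR-210-3p was a mid-abundance miRNA of these exosomes, and its level in the saline library used lay within that of the NXT libraries. Its reads numbered 309, 337, 196, 147 and 317 in NXT-Exo 1 to 5 and 187 in Ctl-Exo 5. Scaled to CPM (counts relative to the library's listed reads, adjusted with edgeR's TMM factors), this was 103.0, 101.5, 88.1, 114.9 and 82.7 CPM in NXT-Exo 1 to 5 and 101.8 CPM in Ctl-Exo 5. Ctl-Exo 5 lay inside the NXT-Exo range, with 2 NXT-Exo libraries above it and 3 below. In bulk exosome RNA, fewer vesicles with miR-210 and less miR-210 per vesicle cannot be told apart.

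The NXT-Exo level of miR-210-3p was 98.0 ± 12.8 CPM (SD, n = 5). Its edgeR log2 fold change over Ctl-Exo 5 was -0.06 with a standard error of 0.29, and the quasi-likelihood test gave an adjusted p of 0.954. The 95% interval of this log2 fold change was -0.65 to 0.53. In this fit the spread between libraries comes from NXT-Exo alone, and Ctl-Exo 5 is assumed and not measured to vary as they do, so the interval compares NXT-Exo with this library and does not bound the effect of NXT. Over all 865 miRNAs with reads the fit called 0 (0%) at an adjusted p under 0.05, 46 (5.32%) had an unadjusted p under 0.05, and DESeq2 also called 0.

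**Figure D1:**
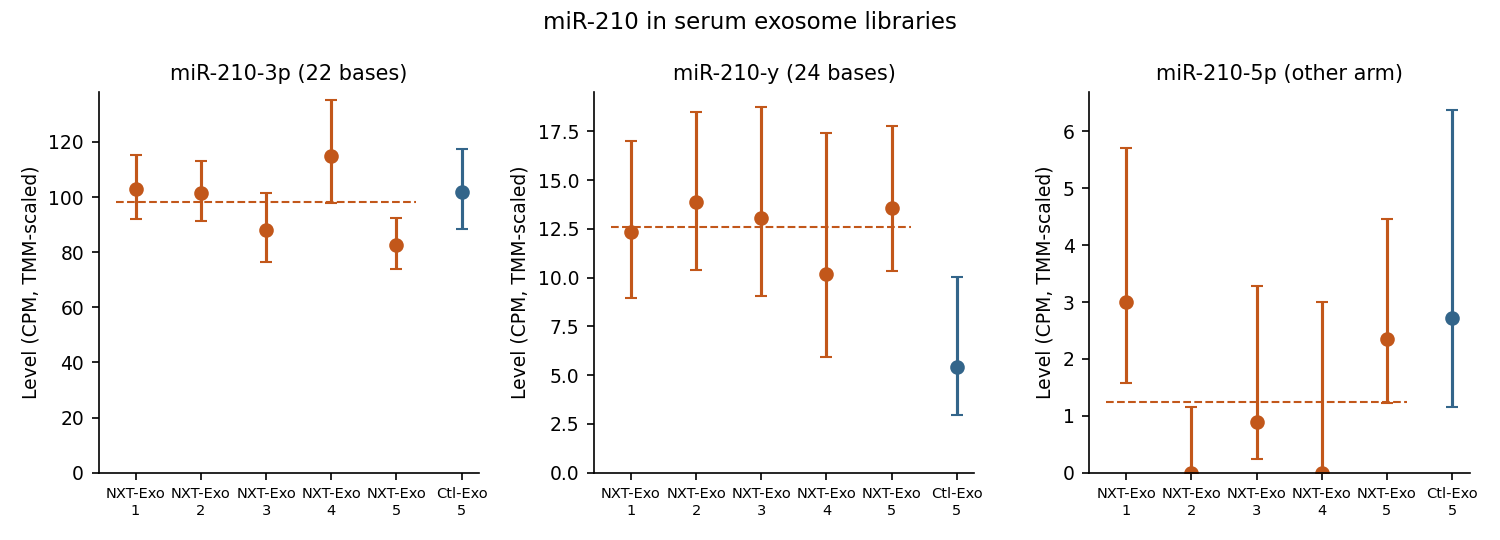
Level (CPM, linear axes from 0) of miR-210-3p, the longer row miR-210-y and miR-210-5p in NXT-Exo 1 to 5 (orange) and Ctl-Exo 5 (blue); bars are 95% Wilson intervals of the reads and dashed lines the NXT-Exo means. miR-210-3p in Ctl-Exo 5 (101.8 CPM) sits among the NXT-Exo libraries, whereas miR-210-y in Ctl-Exo 5 (5.44 CPM) sits below all 5.

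Among NXT-Exo libraries the highest miR-210-3p level was 1.39 times the lowest. NXT-Exo 4, the highest, was the library with the fewest listed reads (1168686), and NXT-Exo 5, the lowest, the one with the most (3781718). The part of depth in this order was not tested. The 95% Wilson intervals, which cover counting error only, were 97.8 to 135.1 CPM for NXT-Exo 4 and 74.1 to 92.3 CPM for NXT-Exo 5 and did not overlap. The variance of the reads over NXT-Exo was 3.98 times that of counting alone.

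This spread was below the median spread of other miRNAs. The SD of miR-210-3p over NXT-Exo was 0.19 on the log2(CPM + 1) scale, against a median of 0.24 for the 50 miRNAs nearest to it in mean level and 0.32 for the 467 miRNAs that averaged 10 reads or more. Of the 50, 12 varied less, and of the 467, 95 did. The 467 include rows with far fewer reads than miR-210-3p, for which counting error is larger. The NXT-Exo mean of miR-210-3p differed from Ctl-Exo 5 by -0.05 on this scale, and 51 of the 467 had a smaller difference in size.

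By mean level miR-210-3p ranked 173 of 865, at 98.7 CPM over the 6 libraries against a median of 5.01 CPM for all miRNAs with reads. Within libraries its rank ran from 161 to 188 in NXT-Exo and was 169 in Ctl-Exo 5. The miRNAs next to it in this order were miR-27a-5p at 98.9 CPM and miR-574-x at 98.7 CPM, and neither differed from it beyond the spread over NXT-Exo (SD 35.3 and 17.2 CPM, the first with NXT-Exo 1 far above the rest). For scale, miR-486, the most abundant row, had 210684 CPM.

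miR-210-5p, the arm usually discarded, was near the limit of detection in all 6 libraries. It had 9, 0, 2, 0 and 9 reads in NXT-Exo 1 to 5 and 5 reads in Ctl-Exo 5. This was 3.00 CPM in NXT-Exo 1, 0 in NXT-Exo 2, 0.90 CPM in NXT-Exo 3, 0 in NXT-Exo 4 and 2.35 CPM in NXT-Exo 5, against 2.72 CPM in Ctl-Exo 5. Of the NXT-Exo libraries, 1 lay above Ctl-Exo 5 and 4 below it. With 3 reads as the limit that 0 reads allow, its level could be up to 0.90 CPM in NXT-Exo 2 and up to 2.35 CPM in NXT-Exo 4.

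The NXT-Exo level of miR-210-5p was 1.25 ± 1.37 CPM (SD, n = 5). The edgeR log2 fold change over Ctl-Exo 5 was -1.03 with a standard error of 1.81 and an adjusted p of 0.875, and its 95% interval of -4.75 to 2.69 leaves the direction unknown. No difference was detectable at this depth, where the floor of 3 reads stood at 1.63 CPM for Ctl-Exo 5 and 0.78 to 2.35 CPM for NXT-Exo. miR-210-5p ranked 598 of 865 at 1.49 CPM, between miR-672-5p at 1.5 CPM and miR-490-3p at 1.48 CPM, and differences among these 3 were far smaller than their spread.

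Nearly all miR-210 reads came from the 3p arm. Over the 6 libraries there were 1493 reads of the 3p arm and 25 of the 5p arm, a ratio of 59.7. The 3p arm made up 97.2%, 100%, 99.0%, 100% and 97.2% of both arms in NXT-Exo 1 to 5, and 97.4% in Ctl-Exo 5, with a 95% Wilson interval of 94.0% to 98.9%. The NXT-Exo share was 98.7% ± 1.41 (SD, n = 5), and the Ctl-Exo 5 value lay within its range. By the same limit of 3 reads, 0 of 337 reads in NXT-Exo 2 allow a 5p share of up to 0.890%, and 0 of 147 in NXT-Exo 4 up to 2.04%. The Wilson intervals of these shares reach further, to 1.13% and 2.55%.

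Such a one-sided hairpin was common in these exosomes. Of 115 rat hairpins with both arms listed and 10 reads or more on average, the 3p arm was the major one in 47 and the 5p arm in 68. The major arm held a median of 96.2% of the reads, against 98.4% for miR-210, and 42 hairpins were more one-sided than miR-210.

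The longer row, miR-210-y, was the miR-210 sequence that stood apart most between NXT-Exo and Ctl-Exo 5, although it did not pass the test. It had 37, 46, 29, 13 and 52 reads in NXT-Exo 1 to 5 and 10 in Ctl-Exo 5. Its level was 12.3, 13.9, 13.0, 10.2 and 13.6 CPM in NXT-Exo 1 to 5 and 5.44 CPM in Ctl-Exo 5, with a 95% Wilson interval of 2.96 to 10.0 CPM. All 5 NXT-Exo libraries lay above Ctl-Exo 5, as they did for 130 of the 865 miRNAs (15.0%).

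The NXT-Exo level of miR-210-y was 12.6 ± 1.47 CPM (SD, n = 5), or 2.31 times that of Ctl-Exo 5. The edgeR log2 fold change was 1.21 with a standard error of 0.66, a 95% interval of -0.14 to 2.57, an unadjusted p of 0.0773 and an adjusted p of 0.815. It was 1 of 46 rows (5.32%) at least 2-fold higher in the NXT-Exo mean, on the log2(CPM + 1) scale, with Ctl-Exo 5 below all NXT-Exo libraries. Within NXT-Exo the reads of miR-210-y varied by 0.29 times what counting alone gives.

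Set against miR-210-3p, the longer row made up a smaller part of the 3p reads in Ctl-Exo 5. Its share of the reads of both rows was 10.7%, 12.0%, 12.9%, 8.13% and 14.1% in NXT-Exo 1 to 5, or 11.6% ± 2.29 (SD, n = 5). In Ctl-Exo 5 it was 5.08%, or 10 of 197 reads, with a 95% Wilson interval of 2.78% to 9.09%. Ctl-Exo 5 was the lowest of the 6, but NXT-Exo 4 at 8.13% lay within its interval. This share was chosen as a measure after the reads had been seen, and an exact permutation test of 1 library against 5 cannot give a two-sided p below 0.33.

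**Figure D2:**
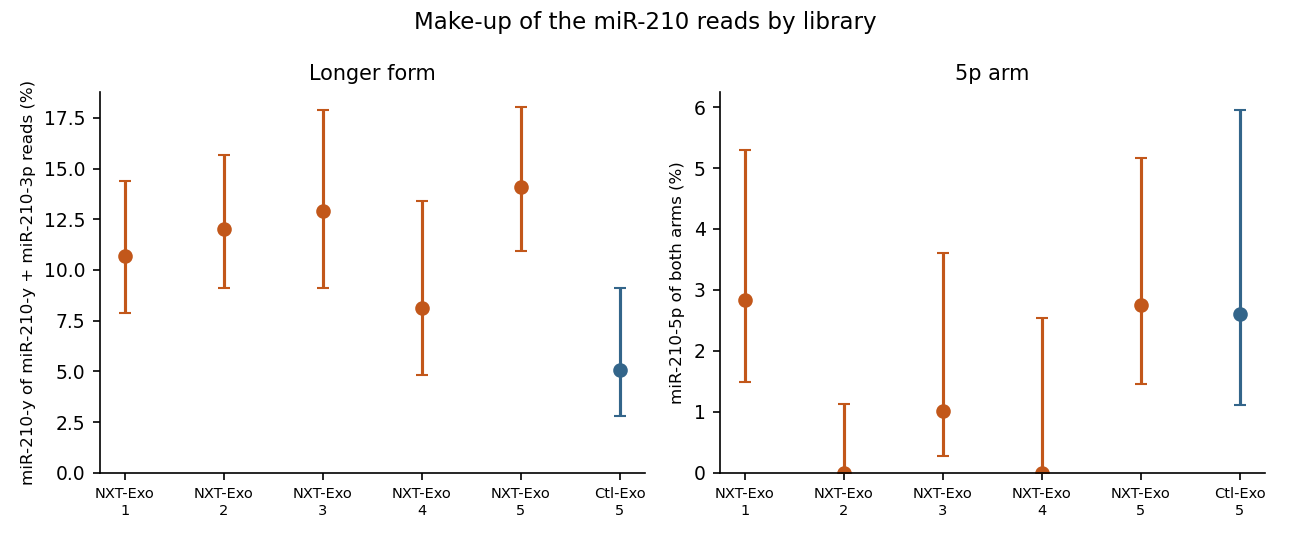
Share of miR-210-y among the reads of miR-210-y and miR-210-3p (left) and of miR-210-5p among both arms (right), in percent, for NXT-Exo 1 to 5 (orange) and Ctl-Exo 5 (blue), with 95% Wilson intervals. The longer form is at 5.08% in Ctl-Exo 5, below the 8.13% to 14.1% of NXT-Exo, while the 5p share of Ctl-Exo 5 (2.60%) lies within the NXT-Exo range.

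Longer rows of this kind exist for other miRNAs and give the background for that share. In 53 other pairs, an unprefixed row with at least 60 reads extends a rat row at its 3′ end. The longer row held a median share of 5.52% for NXT-Exo and 5.63% for Ctl-Exo 5. In 10 of the 53 (18.9%) the share was lowest in Ctl-Exo 5 and in another 10 it was highest there, and 4 of the 53 had a larger relative difference than miR-210. A low share in Ctl-Exo 5 was therefore found in some pairs and a high share in as many.

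**Figure D3:**
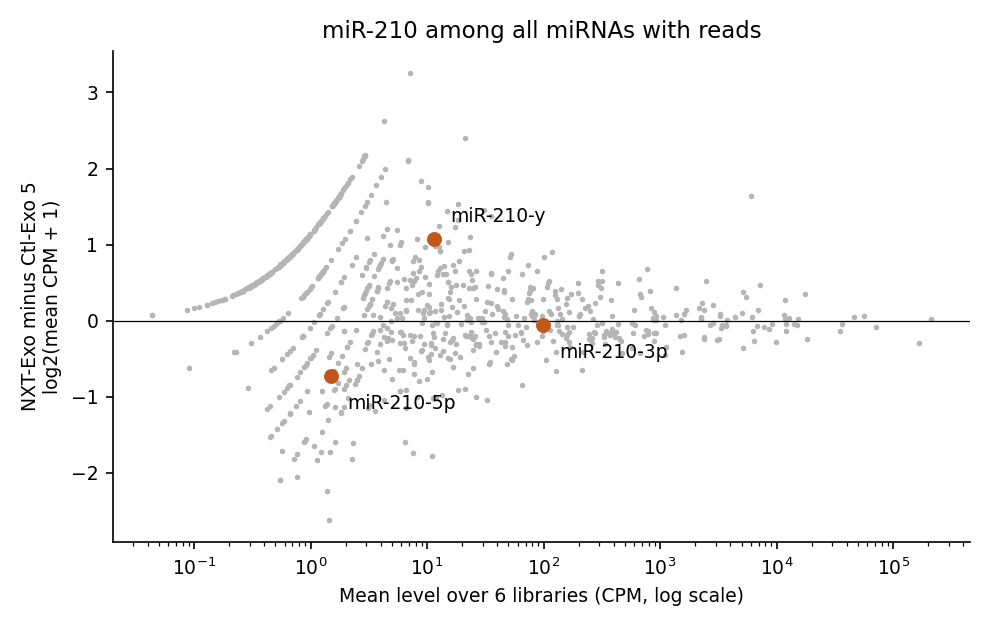
NXT-Exo mean minus Ctl-Exo 5 on the log2(CPM + 1) scale (y axis) against the mean level over 6 libraries in CPM (x axis, log scale) for the 865 miRNAs with reads; the 3 miR-210 rows are orange. miR-210-3p lies near 0 (-0.05), miR-210-5p at -0.73 lies among rows with few reads and wide scatter, and miR-210-y is at 1.08.

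The miRNAs nearest in pattern to miR-210-3p were miR-378a-3p, miR-4523-z, miR-101b-3p, miR-24-3p and miR-27a-3p. Likeness was the root mean square difference of log2(CPM + 1), centred on each miRNA's mean, over the 6 libraries, which share their scaling factors. It was 0.066 for miR-378a-3p and 0.091 to 0.116 for the other 4, among 467 miRNAs. The Pearson correlation with miR-210-3p over the 6 libraries ran from 0.72 for miR-24-3p to 0.92 for miR-4523-z. These 5 were picked for likeness over the same 6 libraries, so the correlations are no separate evidence of a link. miR-378a-3p was at 3118, 2755, 2525, 3244 and 2582 CPM in NXT-Exo 1 to 5 and 2908 CPM in Ctl-Exo 5. Like miR-210-3p it was highest in NXT-Exo 4 and low in NXT-Exo 3 and NXT-Exo 5.

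Other miRNAs tied to hypoxia were set beside miR-210. Their tie to hypoxia, given below as known, rests on reports and was not measured here. Of 15 miRNAs known to be raised in hypoxic cells, such as those of the miR-23, miR-24, miR-27, miR-26 and miR-181 groups, all 15 were listed and edgeR called 0, with 0 at an unadjusted p under 0.05 as well. The NXT-Exo mean was higher than Ctl-Exo 5 for 5 of them and lower for 10. Over all 865 miRNAs it was higher for 528 and lower for 337, and over the 467 that averaged 10 reads or more for 253 and 214. The median difference of the 15 was -0.08 on the log2(CPM + 1) scale, against 0.16 over all 865 miRNAs and 0.03 over these 467. Ctl-Exo 5 lay outside the NXT-Exo range for 6 of the 15, against 30.3% of all miRNAs.

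The most abundant of these was miR-26a-5p at 70442 ± 8055 CPM (SD, n = 5) in NXT-Exo, with Ctl-Exo 5 at 74335 CPM. miR-23a-3p was at 34790 ± 6041 CPM (SD, n = 5) against 38069 CPM, and miR-27b-3p at 13935 ± 1638 CPM (SD, n = 5) against 14375 CPM. For these 3 the difference was smaller than the SD over NXT-Exo, as it was for miR-210-3p. Not all 15 were so close, since Ctl-Exo 5 lay above all NXT-Exo libraries for 4 of them and below all for 2. Of all miRNAs, 15.3% lay above in this way and 15.0% below.

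A second group holds miRNAs reported to act on the HIF pathway, by targeting HIF itself or the enzymes that control it. Of 12 fixed, 11 were listed and edgeR again called 0. The NXT-Exo mean was higher for 5 and lower for 6, against 528 and 337 of all 865 miRNAs. Over the 467 that averaged 10 reads or more it was higher for 253 and lower for 214. The median difference of the 11 was -0.09 on the log2(CPM + 1) scale, against 0.16 over all 865 miRNAs and 0.03 over these 467. miR-20a-5p, a member of the miR-17 family that targets HIF1A, had the highest level, at 1034 ± 122 CPM (SD, n = 5) in NXT-Exo, with Ctl-Exo 5 above all 5 libraries at 1412 CPM. miR-199a-3p was at 902 ± 176 CPM (SD, n = 5) against 1012 CPM, and miR-17-5p at 384 ± 64.5 CPM (SD, n = 5) against 417 CPM.

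Of the 11, 3 had an unadjusted p under 0.05 in the edgeR fit, against 46 of all 865 miRNAs (5.32%), and are named here after their values were seen. miR-31a-5p was at 20.8 ± 6.42 CPM (SD, n = 5) in NXT-Exo against 6.53 CPM, miR-204-5p at 7.99 ± 6.43 CPM (SD, n = 5) against 1.09 CPM, and the third was miR-20a-5p. The adjusted p was 0.815 for each. The 3 do not share a direction, since miR-20a-5p was the one lower in NXT-Exo. The Ctl-Exo 5 level of miR-204-5p lay below the floor of 3 reads (1.63 CPM), and NXT-Exo 3 was lower still at 0.90 CPM.

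Depth and the levels of blood-cell miRNAs differed between these libraries. The listed reads summed to 1890463 for Ctl-Exo 5 and 1168686 to 3781718 for NXT-Exo. All 4 red cell miRNAs fixed as markers (miR-451-5p, miR-486, miR-144-3p and miR-144-5p) were present in every library, with a summed level of 210386 CPM in Ctl-Exo 5, inside the NXT-Exo range of 157714 to 260257 CPM. The log2 ratio of miR-451-5p to miR-23a-3p reads, used as a sign of red cell breakage, was -4.11 in Ctl-Exo 5, ran from -4.76 to -3.25 over NXT-Exo and was highest in NXT-Exo 4, where miR-210-3p was also highest. The other libraries did not keep to this order, since NXT-Exo 1 had the lowest ratio (-4.76) with 103.0 CPM of miR-210-3p, and NXT-Exo 3 a high ratio (-3.68) with 88.1 CPM. The part of red cell breakage in the miR-210-3p level was not tested. The 4 platelet and white cell markers (miR-223-3p, miR-142-3p, miR-142-5p and miR-150-5p) summed to 25676 CPM in Ctl-Exo 5, above the NXT-Exo range of 20705 to 24462 CPM. Most of this sum was miR-142-5p, at 20887 CPM in Ctl-Exo 5. Ctl-Exo 5 lay above all NXT-Exo libraries for miR-142-5p and miR-223-3p, and within their range for miR-142-3p and miR-150-5p. Over all 865 miRNAs it lay above all NXT-Exo libraries for 132 (15.3%) and below all for 130 (15.0%). The endothelial miR-126a arms summed to 1154 to 1498 against 1252 CPM, the 2 liver miR-122 arms to 3308 to 17426 against 2203 CPM, and the 4 muscle markers (miR-1-3p, miR-133a-3p, miR-206-3p and miR-499-5p) to 95.4 to 156 against 114 CPM. Of the liver arms, miR-122-5p was lowest in Ctl-Exo 5 and miR-122-3p lay within the NXT-Exo range. The muscle markers went different ways, since Ctl-Exo 5 was above all NXT-Exo libraries for miR-1-3p and below all for miR-133a-3p. It lay within their range for miR-206-3p and miR-499-5p. For comparison with these markers, Ctl-Exo 5 lay outside the NXT-Exo range for 262 of all 865 miRNAs (30.3%).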

How the data were processed

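Per the labels, ACGT101-miR was used to filter out adapter dimers, junk and low-complexity reads, other small RNA classes and repeats. The authors then counted reads per miRNA row and deposited these raw counts beside TPM values, which are the counts scaled to a larger library total (listed reads are 86.0% to 88.3% of it) with 0 reads written as 0.01. The aligner and miRNA release are not given in the sources used here, and Rnor_6.0 is named in the submitters' processing notes. The table has 8 more columns, named for a further 4 Ctl-Exo libraries. These fall outside the labelled samples and were left out, so the single Ctl-Exo library is a limit of the samples used and not of the table.

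Of 867 rows, 865 had reads and were fitted with edgeR 4.0.16 (TMM factors, quasi-likelihood test, Benjamini-Hochberg adjustment; R 4.3.3). DESeq2 1.42.0 was an alternative. NXT-Exo 1 to 5 were compared with Ctl-Exo 5, and p-values measure the spread between these libraries only, since no source says they came from separate animals. Standard errors were derived from the F statistic. The edgeR fit was tested on simulated data. The simulation took its spread from this same fit, so it could not test whether Ctl-Exo 5 varies as NXT-Exo does. Levels are TMM-scaled CPM, 1 read being 0.544 CPM for Ctl-Exo 5 and 0.261 to 0.782 CPM for NXT-Exo, and a pseudocount of 1 was used on the log2 scale. Intervals are Wilson 95% and, like the floor of 3 reads, cover counting error only. RNAfold (ViennaRNA 2.7.2) folded the hairpin, and Python 3.11.15 with scipy 1.17.1 did the rest.

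Named miRNAs were the members, rows with the name or seed of miR-210, their neighbours in mean level, the 5 nearest in pattern among those that averaged 10 reads or more, the 3 highest of each hypoxia list with any called, and the markers. The members and lists were chosen with earlier results of these data known. Alternatives were other scalings, a minimum mean of 10 reads, DESeq2, other pseudocounts, the median, and leaving out each NXT-Exo library. The TPM library totals, the sum of miR-210-3p and miR-210-y, the longer-row share, the minimum of 60 reads for longer rows, and the alternatives of miR-210-y and the hypoxia lists were added after the data had been seen.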

Additional observations from a re-analysis of the deposited data

Results flagged for a closer look

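In 22 sets of 5 NXT-Exo values, a single library stood far from the rest in 2, neither of them a miR-210 row. By chance about 1 set in 20 does so. miR-27a-5p, the neighbour of miR-210-3p in level, was at 158 CPM in NXT-Exo 1, with the other 4 at 69.3 to 92.8 CPM, a gap of 0.735 of the range (critical value 0.71). The summed liver miR-122 arms were at 17426 CPM in NXT-Exo 1, with the other 4 at 3308 to 6452 CPM, a gap of 0.777. The gap was 0.369 for miR-210-3p, 0.218 for miR-210-5p and 0.589 for miR-210-y.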

How the results depend on the processing

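No paired analysis was made, since the labels do not tie an NXT-Exo library to a Ctl-Exo library. The edgeR log2 fold change of miR-210-3p (-0.06) kept its direction in 10 of 11 alternatives and was called in none of the 11, with an adjusted p of 0.903 to 0.998. It turned to 0.042 with the reads of miR-210-y added, since those reads were fewer in Ctl-Exo 5. It was -0.118 to -0.001 with each NXT-Exo library left out. miR-210-5p stayed negative in all 9, from -1.58 (without NXT-Exo replicate 1) to -0.67 with libraries left out (adjusted p 0.834 to 0.982 over all 9), and could not be fitted with a minimum mean of 10 reads. miR-210-y was 1.18 to 1.27 in all 10 alternatives (adjusted p 0.700 to 0.982, lowest unadjusted p 0.0486). The number of miRNAs called over the whole table was 0 in 10 of 11 alternatives, DESeq2 included. It was 1 without NXT-Exo replicate 2, a range of 0 to 1 with libraries left out.

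On the log2(CPM + 1) scale, the differences moved by less than the SD over NXT-Exo in all 10 alternatives of each arm, although that of miR-210-3p (-0.05) was 0.001 without NXT-Exo replicate 5 and 0.004 when scaled to the listed total, and that of miR-210-5p (-0.73) ran from -1.06 to -0.18 with pseudocounts of 0.1 and 10. The 3p share of both arms was 98.3% to 99.1%, and the miR-210-y share 10.9% to 12.4%, with libraries left out. The median of the hypoxia-raised list stayed below 0 (-0.095 to -0.015 with libraries left out), while that of the HIF pathway list ran from -0.135 to 0.013, the highest with NXT-Exo replicate 3 left out. The reads of miR-210-5p (25 in all) and the 10 reads of miR-210-y in Ctl-Exo 5 limit what these rows can show.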
